A study of Homo sapiens with 8 samples.

Results

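Homologous recombination and the Fanconi anemia pathway were followed through 9 genes, BRCA1, BRCA2, RAD51AP1, XRCC2, BLM, EXO1, FANCA, FANCD2 and FANCI. These were chosen by name from the 60664 gene rows of the table, with earlier results of these data known. A count of them set beside the share of all genes therefore describes a chosen set. All 9 had counts in each of the 8 libraries, the lowest being 160, and all 9 were among the 15066 genes kept by the filter on low counts. The libraries came from A549, an established human lung adenocarcinoma line, and made up 4 groups of 2: untreated cells, cells given interferon gamma (IFN-γ), cells given AX-0085, and cells given both. IFN-γ was used at 20 ng, per mL according to the methods, and AX-0085, a kinase inhibitor selected by the study for blocking PD-L1 induction, was added to 0.5 μM 24 h later, with harvest after another 24 h. The labels give no volume and no vehicle for the untreated cells. All groups were the same cell line, with no genetic change between them, and the labels do not say whether the 2 libraries of a group came from separate cultures, so p-values measure only the spread between these libraries.

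Homologous recombination repairs a broken chromosome by copying the sister chromatid, and it works mainly in S and G2 phase, when a sister is present. A broken end is first cut back to single-stranded DNA, which then pairs with the matching sequence of the sister in a step called strand exchange. The Fanconi pathway removes crosslinks between the strands: a core complex attaches ubiquitin to the FANCD2-FANCI pair, nucleases then open the crosslink, and homologous recombination mends the break that results. Many genes of both pathways are known to be transcribed from late G1 into S phase under E2F factors, whose sites are variants of TTTCCCGC.

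The sequence at the transcription start of these genes was therefore examined first. The promoter windows of RefSeq, on GRCh38.p14 and running from 250 bases before to 50 bases after the start, held 10 windows for 8 of the 9 genes. FANCI had no window. The 8-letter E2F words TTTCCCGC, TTTGGCGC, TTTCGCGC and TTTGCCGC were searched on both strands, and 4 of the 10 windows, those of 4 of the 8 genes searched, held one, against 4.10% of the 22199 windows of protein-coding genes. These 4 sites are shown as the matches found; genes without a match fell as well. The E2F letters, on either strand, are in capitals, and each sequence is written 5′ to 3′ on the strand of the gene.

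XRCC2 (chr7:152676102-152676131, minus strand): tggcgttggtgGCGGGAAAgttgagtctct

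EXO1 (chr1:241848197-241848226, plus strand): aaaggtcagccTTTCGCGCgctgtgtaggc

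FANCA (chr16:89816801-89816830, minus strand): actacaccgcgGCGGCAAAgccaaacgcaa

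FANCD2 (chr3:10026424-10026453, plus strand): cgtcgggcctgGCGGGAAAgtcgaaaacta

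By GENCODE 44, the E2F letters of XRCC2 and EXO1 lie in the non-coding part of the first exon, 22 and 5 bases from the start. Those of FANCD2 span the start, from position -2 to position 6, and those of FANCA lie upstream of the start of its canonical transcript, from position -172 to position -165. The shorter core TTCCCGC, which is contained in TTTCCCGC and was added after the windows had been seen, was present in 8.13% of all windows and in those of 5 of the genes, BRCA1, RAD51AP1, XRCC2, BLM and FANCD2. CCAAT, the letters bound by NF-Y, occurred in 34.7% of all windows and in those of BRCA1, RAD51AP1, BLM and FANCA. The cell cycle letters TTTGAA and TTCGAA occurred in 13.7% of all windows and in none of these genes. The interferon-stimulated response element was present in 3.17% of all windows and in none of these genes. A match gives letters only and does not show that a factor binds there.

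The 250 bases upstream of the RefSeq start are given for FANCD2, which fell most with IFN-γ, and for RAD51AP1, which fell least among the genes that fell. Capitals mark the first letters of the E2F word in FANCD2, and in RAD51AP1 the reverse of CCAAT and the reverse of TTCCCGC.

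FANCD2 (chr3:10026187-10026436, plus strand): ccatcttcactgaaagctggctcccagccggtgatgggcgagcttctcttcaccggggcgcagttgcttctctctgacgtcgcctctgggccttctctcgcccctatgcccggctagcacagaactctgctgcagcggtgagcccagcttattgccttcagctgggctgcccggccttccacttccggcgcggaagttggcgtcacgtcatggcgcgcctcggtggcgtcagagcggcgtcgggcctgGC

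RAD51AP1 (chr12:4538640-4538889, plus strand): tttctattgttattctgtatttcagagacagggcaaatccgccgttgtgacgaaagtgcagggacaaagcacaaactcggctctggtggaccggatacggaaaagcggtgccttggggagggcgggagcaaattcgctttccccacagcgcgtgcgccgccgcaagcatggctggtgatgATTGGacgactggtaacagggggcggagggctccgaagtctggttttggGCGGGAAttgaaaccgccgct

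The total count per library ranged from 20672828 to 29978251, and 3 counts, the floor used here for a library, correspond to 0.100 to 0.145 CPM (counts scaled to the size of the library, with TMM factors). The 9 genes together took between 0.0222% and 0.0585% of all counts. The 2 libraries of each group were not alike within counting noise (chi-square over its degrees of freedom, 8.55 to 27.7). CD274, which encodes PD-L1, had 104 and 161 counts with IFN-γ and between 3 and 14 in the other groups. The 5 epithelial markers summed to 8780 and 9506 CPM untreated, 7196 and 7281 under the combination, 5713 and 6042 under AX-0085 and 6502 and 7388 under IFN-γ. Of these, EPCAM (9.07-fold), CDH1 (3.32-fold), KRT8 (2.64-fold) and KRT18 (2.12-fold) fell with IFN-γ, while KRT7 rose 1.67-fold. The 3 alveolar type 2 markers summed to at most 0.494 CPM. One of the 3, NKX2-1, lies wholly inside other genes, where 77.5% of protein-coding genes have no count, so its 0 does not bear on expression. Leukocyte markers summed to 5.26 and 5.99 CPM in untreated cells and to 0.0528 and 0.161 CPM with IFN-γ, mostly CD14 in untreated cells, while CD3E was at 0, and CD68, also at 0, lies wholly inside other genes. Fibroblast markers summed to 9.03 and 10.8 CPM in untreated cells and to 3.06 and 4.60 CPM with IFN-γ, mostly COL1A1. The part of these markers in the changes below was not tested.

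In untreated cells, FANCI and BRCA1 were the most abundant of the 9 genes per length of their canonical transcript, and BRCA2 the least. The untreated level was 30.2 ± 0.188 CPM per kb for FANCI, 19.9 ± 0.743 for BRCA1, 18.8 ± 1.37 for EXO1 and 12.5 ± 1.01 for RAD51AP1 (mean ± SD, n = 2 here and below). BLM, FANCA, FANCD2 and XRCC2 lay between 5.64 and 9.10 CPM per kb, and BRCA2 was at 1.64 ± 0.325. FANCA, FANCD2 and FANCI have 30.4%, 37.7% and 32.1% of their canonical exon bases inside the span of another gene (ZNF276, FANCD2OS and POLG), and BLM has 8.45%. Of the 198 genes in the lists used here, 13 had no count in any library, and these were exactly the 13 whose canonical transcript lies wholly inside another gene. The levels of genes with such overlaps are therefore uncertain, although a change between groups uses the same counted bases throughout.

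**Figure D1:**
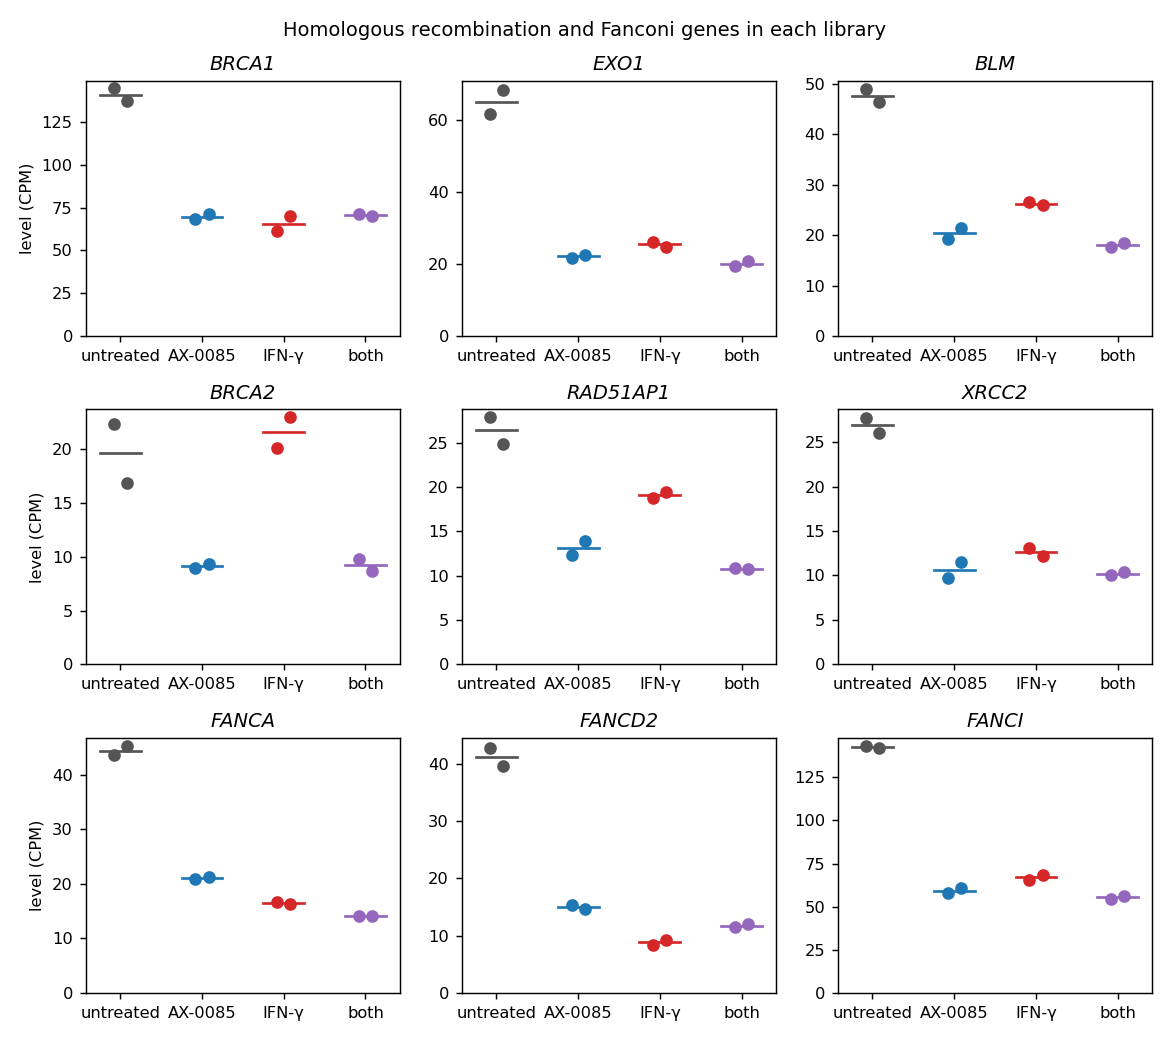
Level of each gene in the 8 libraries, in CPM on a linear axis from 0, for untreated cells, AX-0085, IFN-γ and both. Points are libraries and lines are the means of 2. The untreated libraries are highest for 8 genes, and for BRCA2 the IFN-γ libraries overlap the untreated ones.

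BRCA1 and EXO1 act at the start of recombination, where BRCA1 promotes the cutting back of the broken end and EXO1 is one of the nucleases that performs it. BRCA1 was at 145 and 137 CPM untreated, 71.0 and 70.3 under the combination, 68.1 and 71.2 under AX-0085 and 61.0 and 69.9 under IFN-γ. The AX-0085 libraries of BRCA1 enclosed those with both treatments and overlapped those with IFN-γ, and the means of the 3 treated groups lay between 46.5% and 50.1% of the untreated level. EXO1 was at 61.6 and 68.3 CPM untreated, 19.5 and 20.7 under the combination, 21.6 and 22.6 under AX-0085 and 26.2 and 24.6 under IFN-γ. No groups of EXO1 overlapped, and it kept 34.0%, 39.1% and 30.9% of the untreated level with AX-0085, IFN-γ and both.

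BRCA2, RAD51AP1 and XRCC2 act in strand exchange: BRCA2 prepares the single-stranded DNA for it, XRCC2 belongs to a complex that supports it, and RAD51AP1 aids the joining of the sister strand. BRCA2 was at 22.4 and 16.9 CPM untreated, 9.78 and 8.72 under the combination, 8.92 and 9.33 under AX-0085 and 20.2 and 23.0 under IFN-γ. The IFN-γ libraries of BRCA2 overlapped the untreated ones and the libraries with both treatments overlapped those with AX-0085, so that the level was split by AX-0085 alone. Its untreated libraries had an SD of 3.89 around a mean of 19.7 CPM, the largest of the 9 genes relative to the mean.

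RAD51AP1 was at 27.9 and 24.9 CPM untreated, 10.8 and 10.7 under the combination, 12.4 and 13.96 under AX-0085 and 18.8 and 19.5 under IFN-γ. Its 4 groups were fully separate, with IFN-γ closest to untreated at 72.5% of that level. XRCC2 was at 27.8 and 26.1 CPM untreated, 10.0 and 10.4 under the combination, 9.76 and 11.5 under AX-0085 and 13.1 and 12.2 under IFN-γ. For XRCC2 the AX-0085 libraries enclosed those with both treatments.

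BLM, a helicase that dissolves joined recombination intermediates and also helps to cut back broken ends, was at 49.0 and 46.4 CPM untreated, 17.8 and 18.4 under the combination, 19.3 and 21.4 under AX-0085 and 26.6 and 26.0 under IFN-γ. The groups of BLM did not overlap and followed the order untreated, IFN-γ, AX-0085 and both, which is also the order of EXO1, RAD51AP1, XRCC2 and FANCI.

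FANCA is a subunit of the Fanconi core complex. It was at 43.7 and 45.2 CPM untreated, 14.1 and 14.2 under the combination, 20.9 and 21.3 under AX-0085 and 16.6 and 16.3 under IFN-γ. FANCA thus lay lower with IFN-γ than with AX-0085, without overlap. FANCD2, which receives the ubiquitin and marks the crosslink, was at 42.8 and 39.7 CPM untreated, 11.5 and 12 under the combination, 15.3 and 14.6 under AX-0085 and 8.45 and 9.16 under IFN-γ. With both treatments against IFN-γ, 33.8% of all genes were higher by an adjusted p under 0.05. FANCD2 was the only one of the 9 genes that was, and its libraries did not overlap there. FANCI, its partner in the clamp, was at 143 and 142 CPM untreated, 54.7 and 56.5 under the combination, 58.0 and 60.6 under AX-0085 and 65.3 and 68.7 under IFN-γ. FANCI was therefore not lowered by IFN-γ to the extent of FANCD2, and it kept 46.9% of the untreated level where FANCD2 kept 21.4%.

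The first comparison asked what AX-0085 did to these genes without IFN-γ. All 9 genes fell, to between 34.0% and 49.9% of the untreated level. EXO1 fell most, 2.94-fold (log2 fold change -1.55, SE 0.08), followed by FANCD2 at 2.76-fold (-1.47, SE 0.08) and XRCC2 at 2.53-fold (-1.34, SE 0.10). BLM, FANCI, BRCA2, FANCA, BRCA1 and RAD51AP1 fell between 2.004-fold and 2.41-fold. The 9 changes were of similar size, with a range of 0.551 on the log2 scale.

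A gene was called when edgeR's quasi-likelihood test gave a Benjamini-Hochberg-adjusted p under 0.05 over all 15066 genes and the log2 fold change exceeded 1 in size. By this rule 9 of 9 were lower, where 5.56% of all genes tested were called lower, and by the adjusted p alone 9 of 9 were lower, where the share was 26.6%. The median log2 fold change was -1.23 over the 9 genes and 0.01 over all genes. The adjusted p ranged from 8.7e-10 for FANCI to 6.274e-06 for BRCA2. The calls of BRCA1 (-1.02) and RAD51AP1 (-1.003) sit at the 2-fold limit: without untreated library 1, BRCA1 was at -0.96, RAD51AP1 at -0.90 and BRCA2 at -0.87, and 6 of the 9 genes were called, with all 9 still lower by the adjusted p.

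**Figure D2:**
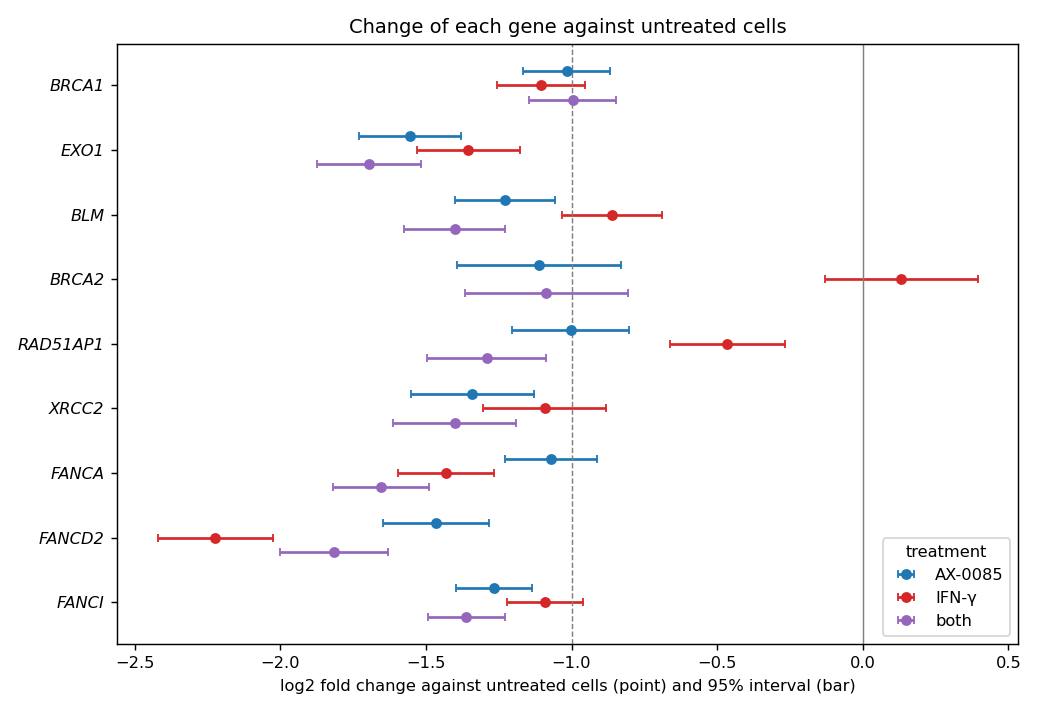
Log2 fold change of each gene against untreated cells with AX-0085 (blue), IFN-γ (red) and both (purple), as point and 95% interval, with a solid line at no change and a dashed line at a 2-fold fall. The blue points lie between -1.55 and -1.003, while the red points spread from -2.22 for FANCD2 to 0.13 for BRCA2.

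The second comparison asked what IFN-γ did without AX-0085. Here the genes parted: FANCD2 fell 4.67-fold (log2 fold change -2.22, SE 0.09), FANCA 2.697-fold (-1.43, SE 0.08) and EXO1 2.56-fold (-1.36, SE 0.08), whereas BRCA2 did not pass the test (0.13, SE 0.12, 95% interval -0.13 to 0.39, adjusted p = 0.3499 by edgeR). BRCA1, XRCC2 and FANCI fell between 2.13-fold and 2.15-fold. BLM fell 1.82-fold and RAD51AP1 1.38-fold, both past the adjusted p and short of the 2-fold limit. The range over the 9 genes was 2.36 on the log2 scale, against 0.551 with AX-0085, and both comparisons share the untreated libraries.

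Of the 9 genes, 6 were called lower with IFN-γ, where 17.2% of all genes were, and 8 were lower by the adjusted p alone, where 36.0% were. The median log2 fold change was -1.09, against -0.06 over all genes. The value of BRCA2 depended on which untreated library was left out: it was 0.40 without untreated library 1, with an adjusted p of 0.009988, and -0.045 without untreated library 2. XRCC2 was at -0.99 without IFN-γ library 2 and was then not called.

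Within the pathway, the parting can be seen in ratios of counts taken in the same library, which do not depend on scaling. The ratio of FANCD2 to BRCA2 counts was 1.91 and 2.35 untreated, 1.17 and 1.38 under the combination, 1.71 and 1.56 under AX-0085 and 0.419 and 0.399 under IFN-γ. The ratio of BRCA1 to BRCA2 was 6.46 and 8.12 untreated, 7.25 and 8.06 under the combination, 7.63 in each AX-0085 library and 3.03 and 3.04 under IFN-γ. In both ratios the IFN-γ libraries stood below all others without overlap.

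The third comparison asked what AX-0085 did to cells that had received IFN-γ. BRCA2 fell 2.33-fold (log2 fold change -1.22, SE 0.13, adjusted p = 1.384e-06 by edgeR), which is about its fall in cells without IFN-γ, and RAD51AP1 fell 1.77-fold (-0.83, SE 0.10). BLM (-0.54), EXO1 (-0.34), XRCC2 (-0.31), FANCI (-0.27) and FANCA (-0.22) fell by less. FANCD2 rose 1.33-fold (0.41, SE 0.10, adjusted p = 0.002609), and BRCA1 was at 0.11 (95% interval -0.04 to 0.26, adjusted p = 0.1974). BRCA2 was the 1 gene called lower, where 8.26% of all genes were called. By the adjusted p alone 7 were lower, where 32.7% of all genes were, and 1 was higher, where 33.8% were. The values of FANCA and XRCC2 are the least firm of these: both missed the threshold, for example, when the genes needed at least 10 counts in every library, with an adjusted p of 0.08096 and 0.05262.

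**Figure D3:**
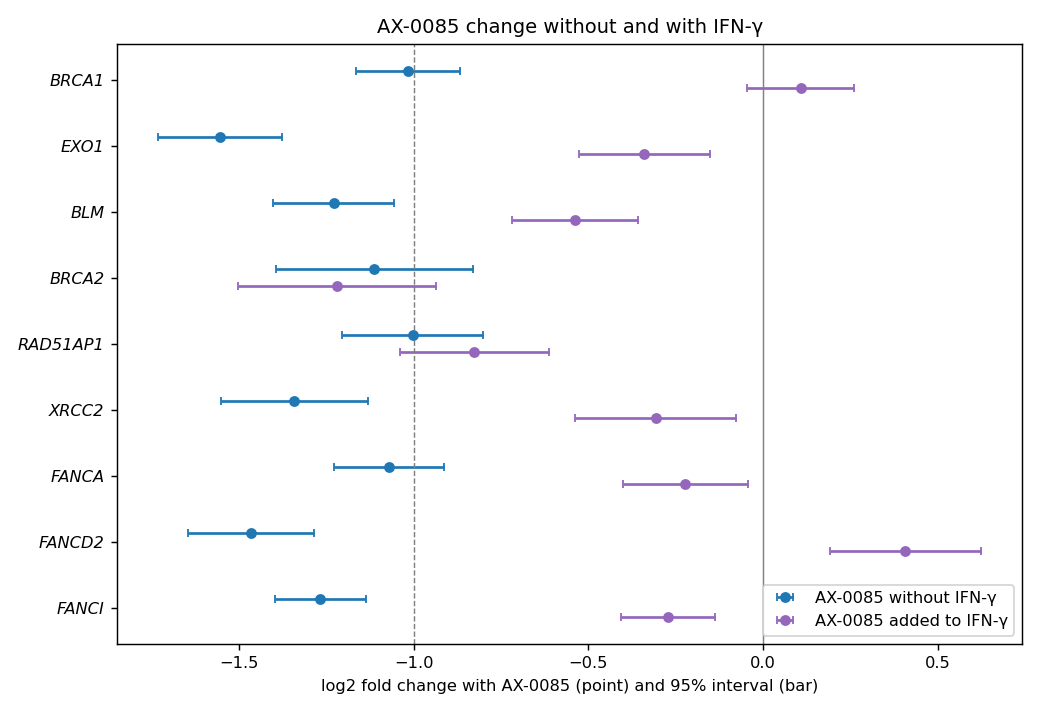
Log2 fold change with AX-0085 in cells without IFN-γ (blue, against untreated) and in cells with IFN-γ (purple, against IFN-γ), as point and 95% interval, with a solid line at no change and a dashed line at a 2-fold fall. The intervals overlap for BRCA2 and RAD51AP1 and are apart for the other 7 genes.

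With both treatments against untreated cells, all 9 genes fell, to between 28.5% and 50.1% of the untreated level. FANCD2 fell 3.52-fold (log2 fold change -1.82, SE 0.09), EXO1 3.24-fold (-1.70, SE 0.08) and FANCA 3.15-fold (-1.65, SE 0.08). BRCA1 changed least, at -0.996, and missed the 2-fold limit. By the full rule 8 of 9 were called lower, where 7.22% of all genes were, and by the adjusted p alone all 9 were, where 28.9% were. The median was -1.40, against 0.01 over all genes. Without untreated library 1, BRCA2 was at -0.82 and was not called.

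Whether the treatments added up was tested with the interaction term of the same model, which is the change of both minus the sum of the single changes. For FANCD2 the single changes sum to -3.69, which would leave 7.76% of the untreated level, and -1.82 was observed, so the interaction was 1.87 (SE 0.13, adjusted p = 4.91e-08 by edgeR). EXO1 had an interaction of 1.22 (SE 0.12), BRCA1 of 1.12 (SE 0.10) and XRCC2 of 1.03 (SE 0.15), and these 4 were called higher, where 12.1% of all genes were. FANCI (1.00), FANCA (0.85) and BLM (0.69) passed the adjusted p, which made 7 of 9, where 26.9% of all genes were higher. BRCA2 (-0.11, 95% interval -0.51 to 0.29, adjusted p = 0.6607) and RAD51AP1 (0.18, 95% interval -0.12 to 0.47, adjusted p = 0.3045) did not pass. The call of XRCC2 was lost without untreated library 1 (0.97), AX-0085 library 1 (0.92) or IFN-γ library 2 (0.96), and FANCI, just under the limit, was called without untreated library 2 or AX-0085 library 2, for example.

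Cells with both treatments were also compared with cells given AX-0085 alone, and 3 of the 9 genes passed the test. FANCA fell 1.498-fold (log2 fold change -0.58, SE 0.08), FANCD2 1.28-fold (-0.35, SE 0.09) and RAD51AP1 1.22-fold (-0.29, SE 0.10). These 3 were lower by the adjusted p, where 17.6% of all genes were, and none of the 9 was called in either direction by edgeR or by the DESeq2 Wald test. At an unadjusted p under 0.05 edgeR gave the same number, 3. RAD51AP1 passed narrowly, with an adjusted p of 0.0407 by edgeR, and had 0.1476 with the DESeq2 Wald test and up to 0.2987 with a library left out. FANCD2 missed the threshold without AX-0085 library 1 (adjusted p = 0.06813) and without library 1 of both treatments (0.1265). BRCA1 was at 0.02 (95% interval -0.13 to 0.17) and BRCA2 at 0.03 (-0.28 to 0.33).

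The 5 lists that hold these pathways name 60 genes besides the 9, of which 7 had no count and 52 were tested. With IFN-γ 13 were called lower, where 17.2% of all genes were, and 1 higher, where 10.2% were, and the median log2 fold change was -0.34. With AX-0085 13 were called lower, where 5.56% of all genes were, and 1 higher, where 6.37% were, and the median was -0.37. With AX-0085 added to IFN-γ 1 was called lower, where 8.26% of all genes were, and 1 higher, where 16.5% were. Counts of called genes in the single lists below stand against the same shares of all genes called lower, 17.2% with IFN-γ and 5.56% with AX-0085, and a count near its share is no result about the list.

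In the Fanconi core complex list, which includes the ubiquitin-conjugating enzyme UBE2T, 5 of 12 tested genes besides FANCA were called lower with IFN-γ, where 17.2% of all genes were, and 4 with AX-0085, where 5.56% were. UBE2T, which carries the ubiquitin to FANCD2, fell 3.93-fold with IFN-γ (log2 fold change -1.97, SE 0.10) and 3.27-fold with AX-0085 (-1.71, SE 0.10). The core subunit FANCG fell 3.07-fold with IFN-γ, and the core subunit FANCB fell 2.59-fold with AX-0085. Downstream of the ubiquitin step, none of 8 tested genes besides FANCD2 and FANCI was called lower by edgeR with either treatment, while at an unadjusted p under 0.05 1 was lower and 3 higher with IFN-γ, and 2 were lower and 0 higher with AX-0085. The difference from the core complex list was not tested. MUS81, a nuclease subunit that cuts at stalled forks, rose 2.29-fold with IFN-γ (1.20, SE 0.08).

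Among the genes of end resection and the BRCA1 complexes, 3 of 9 besides BRCA1 and EXO1 were called lower with IFN-γ, where 17.2% of all genes were, and 1 with AX-0085, near the 5.56% of all genes. BRIP1, a helicase that binds BRCA1, fell 3.03-fold with IFN-γ (log2 fold change -1.60, SE 0.11), and DNA2, a nuclease that works beside EXO1, fell 2.62-fold with IFN-γ and 2.08-fold with AX-0085. BARD1, the obligate partner of BRCA1, fell by 0.72 with IFN-γ and by 0.96 with AX-0085 on the log2 scale, past the adjusted p and short of the 2-fold limit. ABRAXAS1, a scaffold of the BRCA1-A complex, rose 2.94-fold with AX-0085 (1.55, SE 0.12) and 3.27-fold with AX-0085 added to IFN-γ (1.71, SE 0.14). Of its canonical exon bases, 88% lie inside the span of MRPS18C, so its counts may rest on a small part of the gene.

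Among the genes of strand exchange, 3 of 14 besides BRCA2, RAD51AP1 and XRCC2 were called lower with IFN-γ, near the 17.2% of all genes, and 5 with AX-0085, where 5.56% were. RAD54L, a motor protein that acts during strand exchange, fell 3.95-fold with IFN-γ (log2 fold change -1.98, SE 0.15) and 2.65-fold with AX-0085 (-1.41, SE 0.14). PALB2, which joins BRCA2 to BRCA1, rose 1.65-fold with IFN-γ (0.72, SE 0.08) and fell 1.88-fold with AX-0085 added to IFN-γ (-0.91, SE 0.08), both past the adjusted p. The interaction of PALB2 was -0.63 (SE 0.12, adjusted p = 0.000422 by edgeR), below 0, where 23.7% of all genes were lower by the adjusted p.

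Of the genes of the BLM complex, other helicases and resolvases, 2 of 9 besides BLM were called lower with IFN-γ, near the 17.2% of all genes, and 3 with AX-0085, where 5.56% were. RECQL4, a helicase of the same family as BLM, fell 4.28-fold with IFN-γ (log2 fold change -2.10, SE 0.10) and 2.32-fold with AX-0085 (-1.22, SE 0.09). RMI2, a subunit of the BLM complex, fell 2.59-fold with IFN-γ.

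End joining is the repair route that needs no sister chromatid. None of its 14 tested genes was called by edgeR with IFN-γ or with AX-0085, and the medians were 0.30 and -0.28. Of all genes, 17.2% were called lower and 10.2% higher with IFN-γ, and 5.56% and 6.37% with AX-0085. By the adjusted p alone, 8 of the 14 were higher and 3 lower with IFN-γ, where 32.1% and 36.0% of all genes were. With AX-0085 1 was higher and 7 lower, where 26.6% of all genes were higher and 26.6% lower. At an unadjusted p under 0.05 the counts were 8 and 3 with IFN-γ and 2 and 8 with AX-0085. The difference between the lists was not tested.

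**Figure D4:**
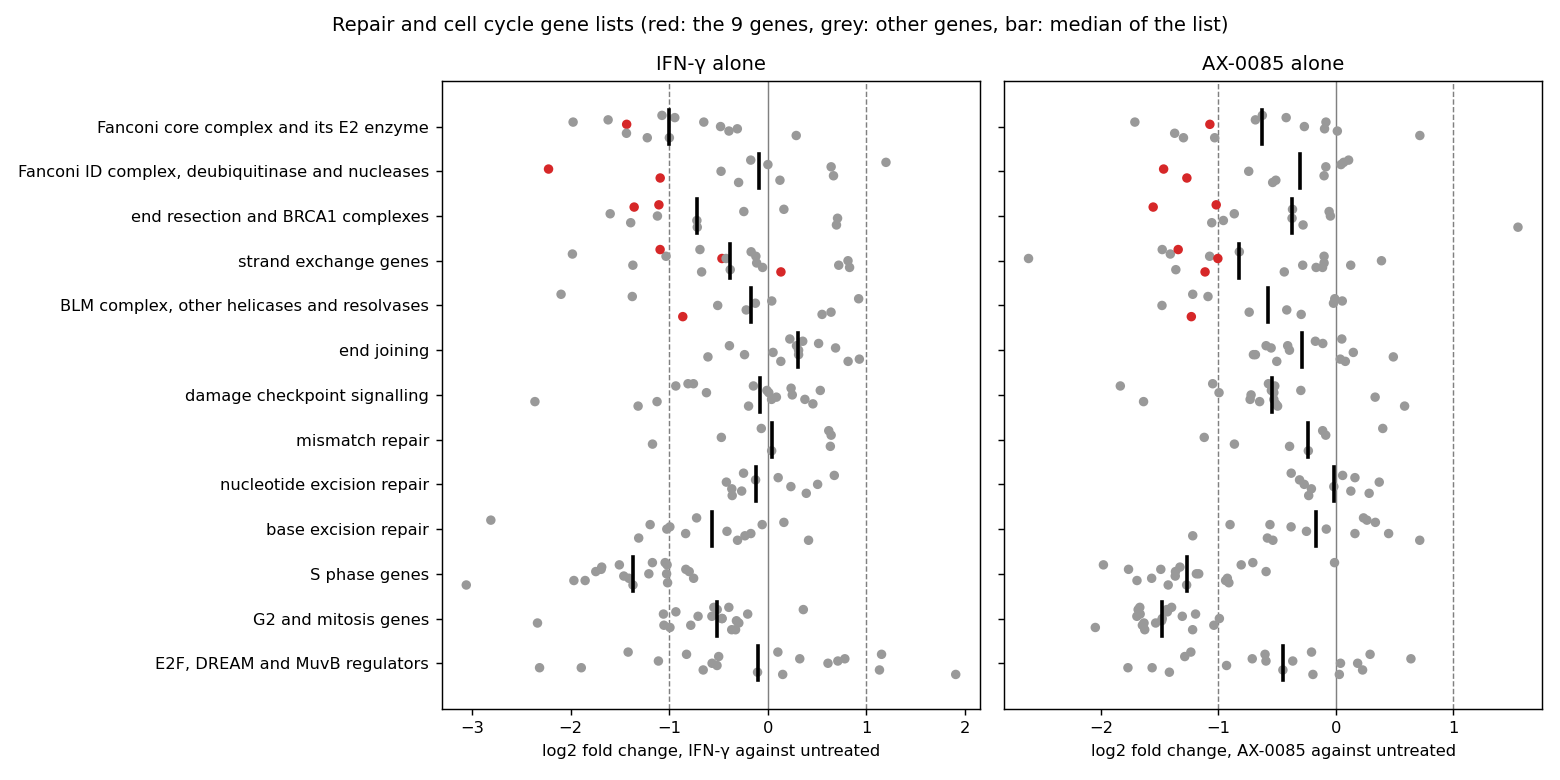
Log2 fold change of the tested genes of 13 lists with IFN-γ (left) and AX-0085 (right) against untreated cells, with the 9 genes in red, other genes in grey, the median of each list as a black bar, and dashed lines at a 2-fold change. Of the red points, 8 lie left of 0 with IFN-γ and 9 with AX-0085, and the S phase genes lie to the left of 0 in both. Of all 15066 genes tested, 7990 were below 0 with IFN-γ and 7361 with AX-0085.

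Markers of cycling cells are given beside these genes. Of 19 tested S phase genes, 16 were called lower with IFN-γ (median log2 fold change -1.37), where 17.2% of all genes were, and 12 with AX-0085 (-1.27), where 5.56% were. Of 19 tested G2 and mitosis genes, 3 were called lower with IFN-γ (-0.51), no larger a share than over all genes, and 18 with AX-0085 (-1.48). By the adjusted p alone, 18 of these 19 were lower and 1 higher with IFN-γ, where 36.0% and 32.1% of all genes were. With AX-0085 all 19 were lower by the adjusted p, where 26.6% of all genes were. PCNA, the sliding clamp of replication, fell 2.65-fold with IFN-γ and 1.90-fold with AX-0085, and MKI67, a proliferation marker, fell 1.46-fold and 2.63-fold. E2F1, an activating E2F factor, fell 4.97-fold with IFN-γ and 2.95-fold with AX-0085, while E2F5, another E2F factor, rose 2.22-fold with IFN-γ. CDKN1A, which encodes the cell cycle inhibitor p21, rose 3.75-fold with IFN-γ and was at 0.03 (log2 fold change, adjusted p = 0.7542 by edgeR) with AX-0085. These 3 genes belong to a list of E2F factors and related regulators with 19 tested genes. With IFN-γ 4 of the 19 were called lower and 3 higher (median -0.10), where 17.2% and 10.2% of all genes were. With AX-0085 5 were called lower and 0 higher (median -0.45), where 5.56% and 6.37% of all genes were. In these bulk libraries a smaller share of cells in S phase and less RNA per cell cannot be told apart, and the part of the cell cycle in the changes of the 9 genes was not tested.

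The genes most like the mean profile of the 9 genes were TMPO, MCM10, AP1S3, NCAPG2 and TIMELESS, with a Pearson's r between 0.994 and 0.996 over the 8 libraries, out of 10159 genes compared. This is a description of 8 libraries in 4 groups, which share the large step between untreated and treated cells. TMPO, which encodes a nuclear lamina protein, was at 269 and 257 CPM untreated, 126 and 127 under the combination, 130 and 147 under AX-0085 and 149 and 163 under IFN-γ. MCM10, a replication initiation factor, was at 91.5 and 88.2 CPM in untreated cells and between 16.7 and 25.5 in all other libraries. Among the 9 genes, EXO1 and FANCI were the most alike over the libraries, with r = 0.996, and BRCA2 and FANCD2 the least, with r = 0.228.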

How the data were processed

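RNA-seq libraries were made from A549 cells, 8 in all. Per the labels' processing notes and the methods, reads were demultiplexed with bcl2fastq 2.20, trimmed with Trim Galore 0.6.7, mapped to GRCh38 with STAR 2.7.9a and counted per gene with featureCounts. The authors deposited these counts as whole numbers without normalization. The annotation release, the strand setting and the treatment of reads in overlapping genes are not given in the sources used here. Gene positions and overlaps come from GENCODE 44 and promoter windows from RefSeq (GRCh38.p14).

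Genes were filtered with filterByExpr, scaled with TMM factors (0.916 to 1.04) and tested with the quasi-likelihood test of edgeR 4.0.16 in R 4.3.3. A single model of the 4 groups held every library. P-values were adjusted over 15066 genes. Intervals are at 95%, from the SE of each log2 fold change. The floor of 3 counts per library covers counting error only. Total counts of 20672828 to 29978251 set the precision. The steps were checked on simulated counts. Alternatives were the DESeq2 1.42.0 Wald test, RLE factors, library size alone, other filters, a call on the adjusted p without the 2-fold limit, fits restricted to the groups of a comparison, a block for the replicate number, and each library left out. A block with the untreated numbers swapped and the shorter E2F core were added once the data had been seen.

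The 9 genes and all lists were chosen with earlier results of these data known. Besides the 9 genes, PALB2, BRIP1, BARD1, MKI67, PCNA and CDKN1A could be named, and for each list and comparison up to 2 called genes with the largest fall and 2 with the largest rise among those whose groups did not overlap and whose mean log2 CPM reached 1. Likeness was computed for genes whose mean log2 CPM reached 2. Some results that the rule allows are not reported here.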

Additional observations from a re-analysis of the deposited data

Results flagged for a closer look

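For 7 of the 9 genes the IFN-γ change differed between cells with and without AX-0085, by the interaction term of edgeR's quasi-likelihood test. All 7 differences were above 0. Of all genes, 26.9% were higher and 23.7% lower in this term by the adjusted p, so a difference as such was common. Given as the IFN-γ change with AX-0085 minus that without it, on the log2 scale, the difference was 1.87 for FANCD2 (SE 0.13, adjusted p = 4.91e-08), 1.22 for EXO1 (SE 0.12, adjusted p = 1.362e-06) and 1.12 for BRCA1 (SE 0.10, adjusted p = 4.78e-07). It was 1.03 for XRCC2 (SE 0.15, adjusted p = 4.144e-05), 1.00 for FANCI (SE 0.09, adjusted p = 4.374e-07), 0.85 for FANCA (SE 0.11, adjusted p = 2.077e-05) and 0.69 for BLM (SE 0.12, adjusted p = 0.0002025). For FANCD2 the IFN-γ change was -2.22 without AX-0085 and -0.35 with it, and for BRCA1 it was -1.10 and 0.02. The cause of the difference was not tested.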

How the results depend on the processing

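Of the single-gene values of the 9 genes under all alternatives, 820 kept their direction and their side of the adjusted p of 0.05, 25 lost it, 3 gained it and 7 changed sign. By the full rule, which adds the 2-fold limit, 17 calls of 4 genes (BRCA1, BRCA2, RAD51AP1 and XRCC2) were lost and 8 of 2 genes (BRCA1 and FANCI) gained over the alternatives that keep that limit. The sign changed only for values near 0. For both against AX-0085, BRCA1 ranged from -0.009 to 0.056, BRCA2 from -0.039 to 0.103 (and -0.003 without 1 AX-0085 library) and XRCC2 from -0.167 to 0.067 over the libraries left out. With IFN-γ, BRCA2 ranged from -0.045 to 0.402, and its interaction was 0.013 with library size alone and ranged from -0.348 to 0.074 over the libraries left out.

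The median of the 9 genes with IFN-γ was -1.038 with the DESeq2 Wald test, -1.046 with RLE factors, -1.209 with library size alone and -1.14 with at least 10 counts in every library. With AX-0085 added to IFN-γ it was -0.185 with library size alone and -0.253 with at least 10 counts, and the interaction median was 1.112 with library size alone. Library size alone also moved the median of all genes, from -0.06 to -0.18 with IFN-γ, from 0.03 to 0.16 with AX-0085 added to IFN-γ and from 0.05 to 0.17 in the interaction; for the first of these the genes called lower then made up 69.7% of calls instead of 62.6%. Over the libraries left out, the median ranged from -1.132 to -1.02 with IFN-γ, from -0.367 to -0.281 with AX-0085 added to IFN-γ, from -1.44 to -1.314 for both against untreated, from -0.177 to -0.07 for both against AX-0085 and from 0.921 to 1.025 for the interaction.

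With at least 10 counts in every library, fewer genes were tested and 1716 of all genes were called lower with IFN-γ, 1569 higher with AX-0085 added to IFN-γ, 516 higher with AX-0085, 701 lower and 682 higher with both against untreated, and 97 lower and 143 higher for both against AX-0085, which fell to 40.4% lower from 50.3%. The DESeq2 Wald test called 135 lower there. The interaction calls were 34.7% lower, and 25.7% with library size alone. By the adjusted p alone, which drops the 2-fold limit, the counts lower and higher were 5428 and 4837 with IFN-γ, 4933 and 5099 with AX-0085 added to IFN-γ, 4012 and 4015 with AX-0085, 4348 and 4247 with both against untreated, 2658 and 2624 for both against AX-0085, and 3567 and 4053 for the interaction. Of the 9 genes, this rule took 7 lower and 1 higher with AX-0085 added to IFN-γ, 3 lower for both against AX-0085 and 7 higher for the interaction.

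Same-numbered libraries deviated from their group means with correlations between -0.109 and 0.0873. No strong shift was thus shared by libraries of the same number, but this cannot show whether they were prepared together. With the replicate block the numbers of the 9 genes called were 6 with IFN-γ, 9 with AX-0085, 1 with AX-0085 added to IFN-γ, 8 with both against untreated and 4 in the interaction, as without it, and RAD51AP1 for both against AX-0085 had an adjusted p of 0.05595. With the untreated numbers swapped in the replicate block, which was chosen after seeing the data, 2587 genes were called lower and 1542 higher with IFN-γ, against 2588 and 1543. With 2 libraries a group, a fit without 1 of them assumes that the lone library varies like the other groups.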

Other observations

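Among repair and checkpoint genes outside recombination, the counts called lower with IFN-γ and with AX-0085 were 4 and 1 of 14 base excision repair genes, 3 and 3 of 18 checkpoint genes and 1 and 1 of 7 mismatch repair genes, where 17.2% and 5.56% of all genes were called lower. The genes named next are those with large changes and do not describe their lists. NTHL1, a DNA glycosylase that starts base excision repair at oxidized pyrimidines, fell 7.002-fold with IFN-γ (log2 fold change -2.81, SE 0.10) and rose 6.67-fold on addition of AX-0085 to IFN-γ (2.74, SE 0.10). PARP1, a sensor of DNA breaks, fell 2.48-fold with IFN-γ, and NEIL3, a glycosylase active on single-stranded DNA, fell 2.32-fold with AX-0085. CLSPN, an adaptor that brings CHK1 to ATR, fell 5.14-fold with IFN-γ and 3.11-fold with AX-0085. H2AX, the histone variant phosphorylated at breaks, fell 3.57-fold with AX-0085. MSH6, a mismatch recognition protein, fell 2.17-fold with AX-0085. As 91.8% of the canonical exon bases of MSH6 lie inside the span of FBXO11, its counts may rest on a small part of the gene. Of 11 tested nucleotide excision repair genes, none was called with IFN-γ or AX-0085. By the adjusted p alone 5 were lower and 3 higher with IFN-γ, where 36.0% and 32.1% of all genes were. With AX-0085 4 were lower and 2 higher, where 26.6% of all genes were lower and 26.6% higher. At an unadjusted p under 0.05 the counts were 5 and 3 with IFN-γ, and 5 and 2 with AX-0085. These counts come from edgeR's test, and whether the lists differ from each other was not tested.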
